A study of Mus musculus with 8 samples.

Results

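The genes described here are 45 genes of mitosis and the kinetochore, taken from a list of symbols. Each of the 45 matched 1 gene of the deposited count table, which holds 43629 genes, and each was among the 17029 genes that passed the filter on low counts. The libraries are polyadenylated RNA of 4 tumors and 4 small intestine samples. Every library is labelled as APC mutant, strain C57B6/129 and untreated, so no wild-type intestine serves as a reference. The labels used here give no Apc allele, age, sex, intestinal segment or number of animals, and they do not say whether a tumor and a small intestine sample share an animal. High-fructose corn syrup appears in the series title but in the labels of none of these libraries, and what can be compared is tissue. Nothing states that the libraries of a tissue come from separate animals, so the p-values speak only for the spread among these libraries, part of which may be technical.

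Mitosis is driven by cyclin-dependent kinase 1 bound to cyclins A and B. Kinetochores, protein assemblies on the centromeres, then attach chromosomes to spindle microtubules. The spindle checkpoint holds the anaphase-promoting complex inactive until every kinetochore is attached, after which separase cuts the cohesin that joins sister chromatids. In the healthy small intestine, dividing cells sit in the crypts, whereas the absorptive cells of the villi no longer divide. Apc restrains the Wnt pathway that maintains crypt proliferation, and its loss starts intestinal tumors in mice and humans. Many of these genes are known to be transcribed late in the cell cycle through a cell cycle homology region (CHR) and CCAAT boxes in their promoters, bound by the MuvB complex with B-Myb or FoxM1 and by NF-Y.

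The promoters of the mitosis genes show this shared element. RefSeq gave promoter windows (GRCm38.p6, 250 bases before to 50 bases after the transcription start) for 36 of the 45 genes, in 39 windows. A CHR, searched as TTTGAA or TTCGAA on both strands, was present in 31 of the 39 windows (79.5%), against 19.2% of all 32851 windows of that length. The CCAAT box, searched as CCAAT on both strands, was in 29 of 39 (74.4%, against 37.4% of all), and 18 of 39 held 2 or more (46.2%, against 11.7%). A CHR together with 2 or more CCAAT boxes was found in 17 of 39 windows (43.6%, against 2.31%). The E2F site of replication genes, searched as TTTGGCGC or TTTCGCGC, was in 1 of the 39 windows (2.56%), but in 12 of 52 windows of DNA replication genes (23.1%, against 0.813% of all). Of those 52 windows, 10 held a CHR (19.2%). These are matches of letters and not binding sites.

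The sequences below show how the elements are placed in 7 genes that hold them and in 2 that differ. Each runs 5′ to 3′ along the gene's strand from 120 bases before the start to 29 bases after it, counting the start as 0, with CHR letters and CCAAT boxes (ATTGG on the other strand) in capitals.
Cdk1, chr10:69352883-69353032, minus strand: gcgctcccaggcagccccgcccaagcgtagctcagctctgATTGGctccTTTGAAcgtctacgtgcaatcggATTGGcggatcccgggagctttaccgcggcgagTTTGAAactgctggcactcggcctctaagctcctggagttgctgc
Ccnb2, chr9:70421525-70421674, minus strand: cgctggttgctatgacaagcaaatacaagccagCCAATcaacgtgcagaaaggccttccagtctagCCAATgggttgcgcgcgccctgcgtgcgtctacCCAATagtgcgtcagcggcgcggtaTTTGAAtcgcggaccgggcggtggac
Cdc20, chr4:118437314-118437463, minus strand: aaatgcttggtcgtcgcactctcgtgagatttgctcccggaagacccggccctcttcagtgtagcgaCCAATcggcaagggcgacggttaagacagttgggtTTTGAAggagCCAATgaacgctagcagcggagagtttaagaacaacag
Cdca8, chr4:124936888-124937037, minus strand: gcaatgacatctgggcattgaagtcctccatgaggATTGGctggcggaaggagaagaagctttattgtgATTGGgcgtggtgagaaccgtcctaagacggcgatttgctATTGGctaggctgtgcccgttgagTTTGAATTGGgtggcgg
Bub1, chr2:127831830-127831979, minus strand: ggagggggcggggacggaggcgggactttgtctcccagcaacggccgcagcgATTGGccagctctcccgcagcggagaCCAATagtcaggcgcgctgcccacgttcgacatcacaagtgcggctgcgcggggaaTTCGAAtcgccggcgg
Ttk, chr9:83834569-83834718, plus strand: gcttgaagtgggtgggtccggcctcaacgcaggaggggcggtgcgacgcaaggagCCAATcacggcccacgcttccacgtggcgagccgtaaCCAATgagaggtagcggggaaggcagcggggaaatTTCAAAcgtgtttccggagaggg
Spc25, chr2:69206184-69206333, minus strand: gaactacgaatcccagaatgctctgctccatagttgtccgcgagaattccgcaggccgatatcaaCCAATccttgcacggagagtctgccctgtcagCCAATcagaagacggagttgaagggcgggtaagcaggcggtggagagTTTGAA
Ccnb1, chr13:100786457-100786606, minus strand: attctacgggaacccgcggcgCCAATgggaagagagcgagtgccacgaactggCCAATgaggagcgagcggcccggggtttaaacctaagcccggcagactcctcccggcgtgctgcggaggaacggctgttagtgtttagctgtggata
Pttg1, chr11:43425952-43426101, minus strand: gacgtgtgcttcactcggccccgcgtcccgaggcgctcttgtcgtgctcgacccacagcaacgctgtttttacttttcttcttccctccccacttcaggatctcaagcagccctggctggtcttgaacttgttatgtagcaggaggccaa
In Ccnb2 3 CCAAT boxes precede a CHR near the start, and Cdk1 holds 2 CHRs within the stretch shown. The CHR of Cdca8 shares its last base with an ATTGG. Bub1 holds the TTCGAA form, which reads the same on both strands. Ccnb1 holds 2 CCAAT boxes and neither of the 2 CHR forms searched in its 300-base window, and Pttg1 holds no match to either element in its window. Other forms of the CHR were not searched, so a gene without a match may still hold one. That window (43425932 to 43426231) lies inside the gene model of Pttg1 (43420250 to 43426251). The bases before the outermost start of Pttg1 were therefore not searched. The other genes with neither in their windows were Birc5, Mad2l1, Mybl2, Ncaph and Nuf2. The Mad2l1 window ends at 66535270, before its gene model starts at 66535390. Windows follow RefSeq starts, and those of Cdca8, Kif2c and Kif4 also lie inside their gene models.

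The tumor libraries held 53856561 to 67371180 gene-assigned counts each, and those of small intestine 62347648 to 84433335. The 45 mitosis genes took 0.336% to 0.424% of these counts in tumor and 0.0488% to 0.0889% in small intestine. These are shares of library totals, so they carry the difference in composition between the tissues given below. The least counted value was Cdc25c in small intestine, at 138 counts in 1 library, so none of the 45 rested on a handful of reads. Levels are given as CPM, read counts rescaled to a common library size with trimmed-mean (TMM) factors, listed from replicate 1 to replicate 4 of a tissue. The 50 most abundant genes held 22.1 ± 0.635% of counts in small intestine and 10.8 ± 0.440% in tumor (SD, n = 4 each; exact 2-sided permutation p = 0.0286, the smallest that 4 against 4 allows; 0.0571 after Benjamini-Hochberg adjustment over 2 library measures). The choice of scaling moves every fold change between the tissues. Enterocyte markers summed to 813 to 1170 CPM in tumor and 62320 to 77340 CPM in small intestine.

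Of the 45 mitosis genes, 44 rose in tumor, none fell and 1, Pttg1, did not pass the test (edgeR quasi-likelihood test, Benjamini-Hochberg adjusted p under 0.05 over all genes tested). The count of fallen genes was 0 at an unadjusted p under 0.05 and with DESeq2 as well. Among all 17029 genes tested, 38.9% were higher in tumor by the same rule, 35.4% were lower and 74.3% were called in either direction. At least a 2-fold rise was called for 39 of the 45, against 27.9% of all genes. The median log2 fold change of the 45 was 1.74, with the middle 50 percent between 1.26 and 2.07, against a median of 0.07 over all genes tested. In 42 of 45 every tumor library lay above every small intestine library, which held for 37.5% of all genes, and the 3 that overlapped were Spc24, Birc5 and Pttg1. In 24 of 45 the lowest tumor library was at least 2 times the highest small intestine library. The share of all genes with such a gap was not counted, so this number is not set against a background. The 13 genes that rose at least 4-fold, a threshold also not counted over all genes, were Anln, Bub1, Kif20a, Ccnb1, Top2a, Smc2, Prc1, Ect2, Cdk1, Mybl2, Mad2l1, Tpx2 and Bub1b. Scaled by library totals alone, the 45 had a median of 2.60 and all 45 rose, but the median of all genes moved up too, by 0.86 on the log2 scale. A change of scaling shifts all genes nearly alike, so the distance between the 2 medians stayed at 1.67 and does not test the scaling. In bulk tissue a larger share of dividing cells and more of each transcript per dividing cell cannot be told apart.

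**Figure D1:**
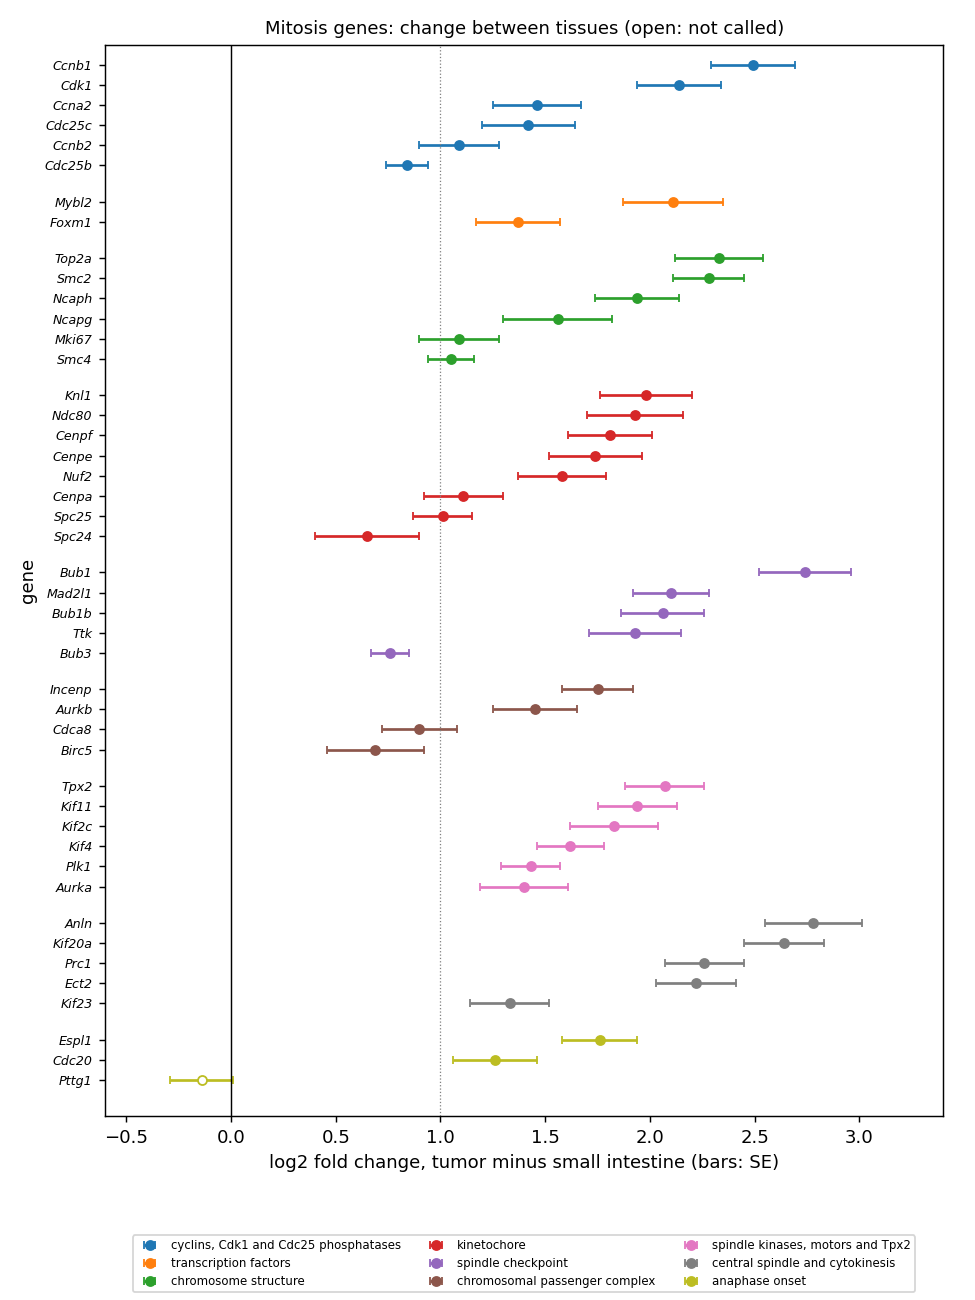
Log2 fold change of each of the 45 mitosis genes between tumor and small intestine (horizontal axis), grouped by role, with bars for the standard error over 4 libraries per tissue, an open point for a gene that was not called and a dotted line at a 2-fold rise. Anln and Bub1 lie farthest to the right, at 2.78 and 2.74, and Pttg1 lies at -0.14.

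All 6 genes of mitotic entry rose, by log2 fold changes of 0.84 to 2.49. Cdk1, the kinase at the center of mitotic entry, stood at 86.4, 89.3, 87.8 and 101 CPM in tumor and at 15.3, 21.4, 29.9 and 16.2 CPM in small intestine. Its log2 fold change was 2.14 ± 0.20 (SE; edgeR adjusted p = 1.14e-05). Cyclin B1 (Ccnb1), its main partner, was at 56.03, 59.2, 52.9 and 67.9 CPM in tumor and 7.83, 11.3, 14.5 and 8.38 CPM in small intestine, for a log2 fold change of 2.49 ± 0.20 (edgeR adjusted p = 3.85e-06). The lowest tumor library of Ccnb1 was 3.65 times the highest small intestine library. Cyclin B2 (Ccnb2) rose by less, at 1.09 ± 0.19, and cyclin A2 (Ccna2) lay between them at 1.46 ± 0.21. Of the phosphatases that activate Cdk1, Cdc25b was at 47.4, 47.4, 48.9 and 54.3 CPM in tumor and 23.4, 30.1, 29.8 and 27.5 CPM in small intestine. That gave the smallest change of the 6 genes of this role, 0.84 ± 0.10 (edgeR adjusted p = 6.01e-05), although the tissues did not overlap. Cdc25c changed by 1.42 ± 0.22 at a lower level, a mean of 8.59 CPM in tumor.

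Both transcription factors of the late cell cycle rose. Foxm1 was at 36.9, 37.6, 33.1 and 45.7 CPM in tumor and 13.3, 14.5, 21.04 and 10.7 CPM in small intestine, for a log2 fold change of 1.37 ± 0.20 (edgeR adjusted p = 0.000203). Mybl2, which encodes B-Myb, was at 29.8, 32.6, 23.1 and 43.4 CPM in tumor and 8.28, 7.55, 9.22 and 4.83 CPM in small intestine, for a log2 fold change of 2.11 ± 0.24 (edgeR adjusted p = 3.95e-05). Mybl2 varied the most among the tumor libraries of all 45 genes, with a coefficient of variation of 26.3%, from replicate 3 at the bottom to replicate 4 at the top.

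Genes of mitotic chromosome structure rose in 6 of 6 cases. Mki67, whose product Ki-67 coats mitotic chromosomes and is the usual stain for dividing cells, was at 168, 185, 184 and 217 CPM in tumor and 80.5, 87.4, 123 and 63.1 CPM in small intestine. Its log2 fold change of 1.09 ± 0.19 (edgeR adjusted p = 0.00056) was among the smaller ones, and small intestine replicate 3 came nearest to the tumors. Top2a, the topoisomerase that untangles sister chromatids, was at 351, 352, 343 and 432 CPM in tumor and 56.5, 82.6, 100.4 and 54.2 CPM in small intestine, for a log2 fold change of 2.33 ± 0.21 (edgeR adjusted p = 7.8e-06). The lowest of its tumor libraries was 3.42 times the highest small intestine library. Among condensin subunits, which compact chromosomes, Smc4 stood at 88.8, 89.3, 88.9 and 107 CPM in tumor and 44.6, 50.1, 47.3 and 38.8 CPM in small intestine, for a log2 fold change of 1.05 ± 0.11 (edgeR adjusted p = 1.75e-05). Its partner Smc2 changed by 2.28 ± 0.17 and the condensin I subunits Ncaph and Ncapg by 1.94 ± 0.20 and 1.56 ± 0.26. Smc4 is counted in small intestine at a mean of 45.2 CPM, against 16.4 CPM for Smc2.

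All 8 kinetochore genes rose, by log2 fold changes of 0.65 to 1.98. Knl1, the scaffold on which checkpoint proteins assemble, was at 17, 17.9, 20.3 and 23.1 CPM in tumor and 3.56, 6.67, 5.56 and 4.002 CPM in small intestine, for a log2 fold change of 1.98 ± 0.22 (edgeR adjusted p = 2.86e-05). The microtubule-binding Ndc80 complex has 4 subunits, whose log2 fold changes ran from 0.65 to 1.93. Ndc80 and Nuf2, which form its outer arm, changed by 1.93 ± 0.23 and 1.58 ± 0.21, whereas the inner subunits Spc25 and Spc24 changed by 1.01 ± 0.14 and 0.65 ± 0.25. Spc24 was at 13.9, 13.01, 16.6 and 16.1 CPM in tumor and 8.20, 8.63, 15.1 and 6.25 CPM in small intestine, so that small intestine replicate 3 lay above tumor replicates 1 and 2. Its call (edgeR adjusted p = 0.0415) was lost when any 1 library other than small intestine replicate 3 was left out (adjusted p of 0.0514 to 0.103), and without that library the log2 fold change was 0.95. Cenpa, the histone variant that marks centromeres, changed by 1.11 ± 0.19, the motor Cenpe by 1.74 ± 0.22 and the large coiled-coil protein gene Cenpf by 1.81 ± 0.20.

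Spindle checkpoint genes split into 4 large rises and 1 small one. The kinase Bub1 was at 30.7, 30.5, 28.8 and 40.8 CPM in tumor and 3.60, 6.16, 6.09 and 3.83 CPM in small intestine, for a log2 fold change of 2.74 ± 0.22 (edgeR adjusted p = 3.87e-06). Here the gap was the widest of all 45 genes, the lowest tumor library being 4.68 times the highest small intestine library. Mad2l1, which encodes the Cdc20 inhibitor Mad2, changed by 2.10 ± 0.18, Bub1b (BubR1) by 2.06 ± 0.20 and the kinase Ttk (Mps1) by 1.93 ± 0.22. Bub3, the adaptor that carries Bub1 and BubR1 to the kinetochore, was at 97.5, 97.3, 102 and 101 CPM in tumor and 52.1, 63.9, 62.4 and 57.1 CPM in small intestine. It rose by 0.76 ± 0.09 on the log2 scale (edgeR adjusted p = 3.7e-05), and its 58.9 CPM in small intestine was the third highest of the 45 there, after Mki67 and Top2a.

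The chromosomal passenger complex corrects faulty attachments and guides cytokinesis, and its 4 genes rose by log2 fold changes of 0.69 to 1.75. Incenp, the scaffold, was at 83.4, 82.2, 76.4 and 95.2 CPM in tumor and 23.4, 26.9, 32.2 and 18.1 CPM in small intestine, for a log2 fold change of 1.75 ± 0.17 (edgeR adjusted p = 1.18e-05). The kinase gene Aurkb changed by 1.45 ± 0.20 and Cdca8 (Borealin) by 0.90 ± 0.18. Birc5, which encodes survivin, was at 46.3, 44.2, 48.98 and 54.2 CPM in tumor and 21.8, 29.4, 46.4 and 22.7 CPM in small intestine, with small intestine replicate 3 above 2 of the tumor libraries. Its log2 fold change of 0.69 ± 0.23 passed the test (edgeR adjusted p = 0.02). The call was lost without small intestine replicate 1 (edgeR adjusted p = 0.055) and without small intestine replicate 4 (edgeR adjusted p = 0.0527), and without replicate 3 the log2 fold change was 0.97.

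Genes that build the spindle rose in 6 of 6 cases, in a narrow band from 1.40 to 2.07 by counts. Plk1, a kinase that acts from entry to cytokinesis, was at 99.6, 90.7, 90.6 and 113 CPM in tumor and 36.8, 31.2, 45.6 and 32.2 CPM in small intestine, for a log2 fold change of 1.43 ± 0.14 (edgeR adjusted p = 1.22e-05). The deposited FPKM values gave another order: on log2(FPKM + 1) Plk1 had the largest difference of the 6, 2.75, with Tpx2 next at 2.66. Without the added 1, Tpx2 led Plk1, with ratios of mean FPKM of 8.25 and 7.54. Aurka, the centrosomal kinase, was at 40.6, 38.98, 38.4 and 49.7 CPM in tumor and 12.7, 16.9, 22.3 and 11.5 CPM in small intestine and changed by 1.40 ± 0.21 (edgeR adjusted p = 0.000191). Its activator Tpx2 was at 72.6, 69.5, 70.2 and 83.95 CPM in tumor and 13.98, 19.8, 23.9 and 13.1 CPM in small intestine and changed by 2.07 ± 0.19 (edgeR adjusted p = 9.87e-06). For none of these 3 genes did the tissues overlap. The motor genes Kif11, which pushes spindle poles apart, Kif2c, a microtubule depolymerase, and Kif4, a chromosome-bound motor, changed by 1.94 ± 0.19, 1.83 ± 0.21 and 1.62 ± 0.16.

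The role with the highest median, 2.26 on the log2 scale, was the central spindle and cytokinesis. Anln, which encodes the contractile ring protein anillin, was at 42.8, 42.95, 40.5 and 51.4 CPM in tumor and 4.41, 7.22, 9.18 and 5.04 CPM in small intestine, for a log2 fold change of 2.78 ± 0.23 (edgeR adjusted p = 4.4e-06). The motor gene Kif20a followed at 2.64 ± 0.19 with the smallest adjusted p of the 45 (edgeR, 1.73e-06). The microtubule bundler Prc1 changed by 2.26 ± 0.19 and Ect2, the exchange factor that activates RhoA at the division plane, by 2.22 ± 0.19. Kif23 was at 48.9, 45.7, 46.05 and 59.1 CPM in tumor and 18.1, 20.04, 27 and 14.2 CPM in small intestine and changed by 1.33 ± 0.19 (edgeR adjusted p = 0.000144), less than the other 4.

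Of the 3 genes of anaphase onset, 2 rose and Pttg1 was not called. Espl1, the gene of separase, was at 27.5, 28.4, 24.98 and 36.7 CPM in tumor and 7.87, 9.48, 10.6 and 6.87 CPM in small intestine, for a log2 fold change of 1.76 ± 0.18 (edgeR adjusted p = 1.49e-05). Pttg1, the gene of securin, which holds separase inactive, was at 17.04, 18.4, 17.1 and 15.2 CPM in tumor and 14.8, 20.9, 22.2 and 16.6 CPM in small intestine. The libraries of the tissues were interleaved, and the difference, -0.14 ± 0.15 on the log2 scale, did not pass (edgeR adjusted p = 0.424). With library totals in place of TMM it turned to 0.73 and passed (edgeR adjusted p = 0.00156), a shift of the same size as that of all genes. Cdc20, which activates the anaphase-promoting complex, changed by 1.26 ± 0.20.

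**Figure D2:**
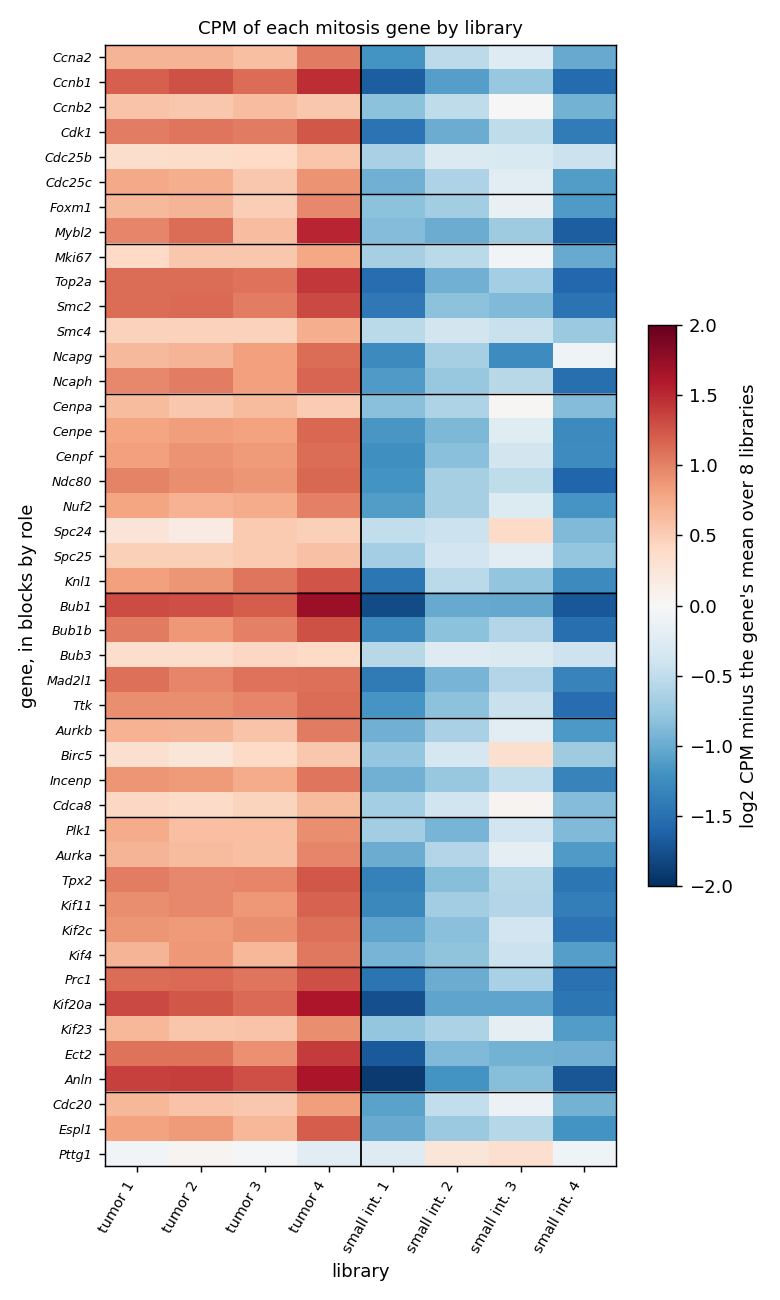
CPM of the 45 mitosis genes (rows, in blocks by role) in the 8 libraries (columns), as log2 difference from the gene's mean over all libraries, red above and blue below. Tumor replicate 4 and small intestine replicate 3 are the reddest columns of their tissues, and the Pttg1 row at the bottom is nearly without color.

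The libraries of a tissue kept a common order over these genes. Tumor replicate 4 had the highest tumor value for 40 of 45, with a median of 1.20 times the mean of its 3 fellow libraries. Its exceptions were Ccnb2, Cenpa and Pttg1, in which it was the lowest, and Spc24 and Bub3, in which replicate 3 was the highest. The same replicate was highest in 45 of 50 DNA replication genes, in 86 of 121 other mitotic genes and in 5846 of all 17029 genes tested. In small intestine, replicate 3 held the top value for 36 of 45, at a median ratio of 1.55, and replicate 4 the lowest in 29, at 0.708. Ncapg departed from this order, with 7.17, 10.9, 7.24 and 16.2 CPM in small intestine. Among DNA replication genes, small intestine replicate 3 was highest in 29 of 50 and replicate 4 lowest in 39 of 50. Among other mitotic genes these counts were 78 and 56 of 121, and over all genes tested 4746 and 4214. Variation within small intestine was the larger for 44 of 45 genes, with a median coefficient of variation of 28.8%, against 10.0% in tumor. The exception was Mybl2. This coefficient was not computed over all genes. Across genes with at least 20 counts in a pair of libraries, small intestine pairs also differed more than tumor pairs. Their chi-square per degree of freedom was 201 to 300.5, against 38.9 to 162.7, so the larger spread was not particular to the 45. Without tumor replicate 4 the median log2 fold change of the 45 was 1.67, and without small intestine replicate 3 it was 1.86. Tumor replicate 4 also had the lowest sum of pan-epithelial markers of the tumor libraries (6360 CPM, against 8228 to 8643) and of goblet cell markers (787 CPM, against 2202 to 3055). The part of these in its higher mitosis values was not tested.

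Ratios between 2 mitosis genes of 1 library do not depend on how libraries are scaled. The 6 pairs given were chosen after the values were seen, so no test is given. From the deposited FPKM values, which are scaled by gene length, the ratio of Ccnb1 to Ccnb2 was 0.870, 0.942, 0.784 and 1.07 in tumor and 0.327, 0.372, 0.339 and 0.369 in small intestine. Cyclin B1 thus stood close to cyclin B2 in tumor and well under it in small intestine. For Espl1 to Pttg1 the ratio was 0.132, 0.126, 0.122 and 0.197 in tumor and 0.0468, 0.0386, 0.0384 and 0.0330 in small intestine. Every tumor library exceeded every small intestine library, with the mean 3.67 times higher. Bub1 over Bub3 had a mean of 0.0493 ± 0.00767 in small intestine and 0.186 ± 0.0281 in tumor (SD, n = 4 each). Ndc80 over Spc24 was 0.305 ± 0.0540 against 0.764 ± 0.0819, and Aurkb over Birc5 was 0.293 ± 0.0435 against 0.479 ± 0.0296. The mean of Top2a over Mki67 was 1.58 times higher in tumor in FPKM and 2.36 times higher in counts. For Ccnb1 over Ccnb2 the tables gave 2.60 and 2.63.

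**Figure D3:**
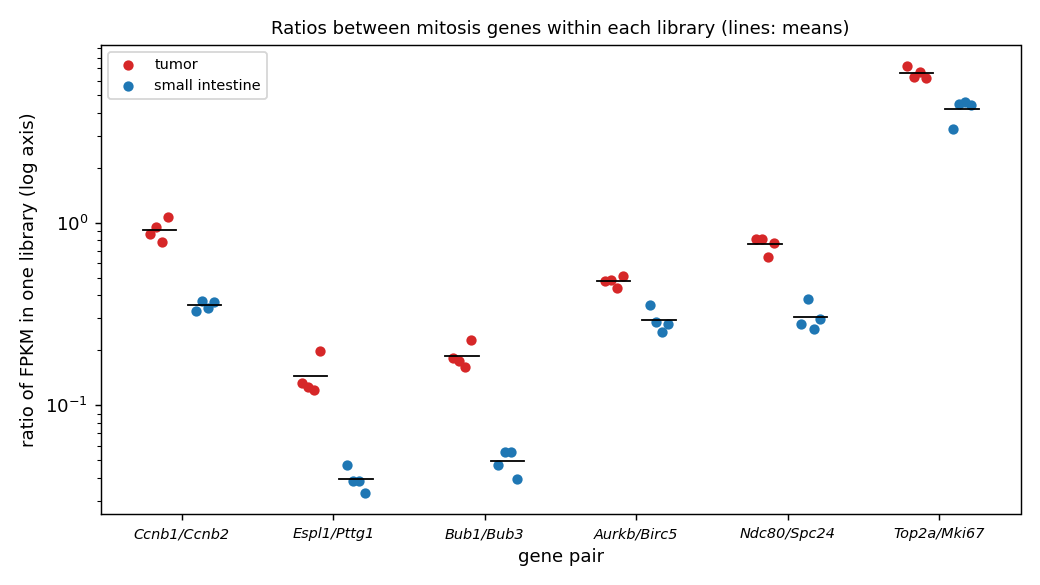
Ratio of the FPKM values of 2 mitosis genes within each library (vertical log axis) for 6 gene pairs, with 1 point per library and a line at each tissue's mean. In each pair the 4 tumor libraries lie above the 4 small intestine libraries, with the widest separation for Espl1/Pttg1 and Bub1/Bub3.

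Compared per length, the 45 genes spanned a wide range of levels. In tumor, mean FPKM ran from 3.63 ± 0.609 for Knl1 to 115 ± 9.36 for Top2a (SD, n = 4), with a median of 18.5. In small intestine it ran from 0.477 ± 0.161 for Knl1 to 19.7 ± 8.29 for Birc5, with a median of 3.31. After Top2a in tumor came Cdk1 at 107 ± 9.15, Mad2l1 at 63.5 ± 3.92, Bub3 at 61.8 ± 2.13 and Birc5 at 59.6 ± 5.43 FPKM, and the last 3 did not differ beyond their spread. The highest in small intestine were Birc5, Bub3 (19.4 ± 2.13), Top2a (19.3 ± 7.70) and Pttg1 (18.1 ± 4.33), which did not differ beyond their spread either. Within the Ndc80 complex, Spc25 had the highest mean, at 18.4 ± 1.21 FPKM in tumor and 4.91 ± 1.08 FPKM in small intestine, where Spc24 at 4.05 ± 1.72 FPKM did not differ from it beyond their spread. Ndc80 had the lowest mean, at 8.29 ± 0.880 and 1.22 ± 0.456 FPKM. In the FPKM table, tested with limma on log2(FPKM + 1), all 45 rose, against 64.6% of the 12849 genes tested there. That table corrects for library size and length but leaves the composition shift in place, and Pttg1 there had a difference of 0.79 (limma adjusted p = 0.0012).

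A further list of 122 genes of the mitotic machinery held both rises and falls. Of 121 tested, 88 rose, 18 fell and the remaining 15 were not called, with a median log2 fold change of 1.08. Other spindle and cytokinesis genes came closest to the 45 (20 of 21 rose, median 1.85), led by the microcephaly gene Aspm at 2.39 ± 0.24 and the abscission gene Cep55 at 2.38 ± 0.21. Among other centromere and kinetochore genes 22 of 29 rose, with Cenpi at 2.12 ± 0.27. The 3 that fell were Cenpx, Hjurp and Cenpb, by 0.56, 0.40 and 0.35 on the log2 scale, and Hjurp, the chaperone of Cenpa, overlapped between the tissues. Of 7 other checkpoint genes, 5 rose, with Kntc1 at 2.68 ± 0.22 and Spdl1 at 1.81 ± 0.25, while Zw10 fell by 0.25. Mad2l1bp, whose product p31comet removes Mad2 from its partners, fell by 1.74 (13.6 against 45.4 CPM, edgeR adjusted p = 2.81e-05). Of 15 condensin and cohesin genes 10 rose, led by the condensin II gene Ncapg2 at 2.40 ± 0.18 and the cohesin protector Sgo2a at 1.84 ± 0.25. The cohesin subunit Stag2 and the cohesin release factor Wapl fell by 0.49 and 0.42.

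In the anaphase-promoting complex and its partners 12 of 16 rose and 3 fell, with a median of 0.56. The ubiquitin-conjugating enzyme gene Ube2s and the subunit gene Cdc23 changed by 1.56 ± 0.12 and 1.37 ± 0.09, whereas the subunits Anapc13 and Anapc2 fell by 0.81 and 0.44. Fzr1, the gene of Cdh1, which activates the complex after Cdc20 at mitotic exit, fell by 0.78 (62.4 against 108 CPM, edgeR adjusted p = 3.97e-05). Of 18 other regulators tested 14 rose, led by the cyclin gene Ccna1 at 3.35 ± 0.53 from under 1 CPM and by the Greatwall kinase gene Mastl at 2.74 ± 0.21. Ensa, a substrate of Greatwall, fell by 1.12. Cdc25a, the relative of Cdc25b and Cdc25c, fell by 0.86. In the DREAM and MuvB group, which represses and activates late cell cycle genes, 5 of 15 rose and 6 fell (median -0.21). The shares over all genes tested were near these, at 38.9% higher and 35.4% lower. Lin9 and Tfdp1 changed by 1.61 ± 0.16 and 1.34 ± 0.11, and E2f5, Rbl2, Lin37, Tfdp2, E2f4 and the NF-Y subunit gene Nfyc fell by 1.03, 0.80, 0.63, 0.55, 0.24 and 0.21. All 18 genes that fell were also called lower with DESeq2 size factors, and all but Nfyc with TMM factors computed without the 50 most abundant genes. With library totals, which leave the composition shift in place, 111 of the 121 other mitotic genes rose and 2, Ensa and Mad2l1bp, fell. Cenpb, Hjurp, Zw10, Stag2, Wapl, Anapc2, E2f4, Tfdp2 and Nfyc then rose, and the other 7 did not pass the test.

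Of 50 DNA replication genes, which act in the S phase before mitosis, 46 rose and none fell (edgeR; 0 also at an unadjusted p under 0.05 and with DESeq2), with a median of 1.43. Orc1, an origin recognition subunit, and the helicase subunit gene Mcm4 led at 2.42 ± 0.21 and 2.31 ± 0.15. Summed over their genes, the 45 mitosis genes stood at 1.09 to 1.20 times the 50 replication genes in tumor and at 0.803 to 1.07 times in small intestine. The ranges did not overlap, and small intestine replicate 3, at 1.07, came closest to the tumors. This gap rested on Top2a, which alone gave 343 to 432 CPM in tumor and 54.2 to 100.4 CPM in small intestine. Without Top2a, small intestine replicate 3 would lie above tumor replicates 1 and 2.

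**Figure D4:**
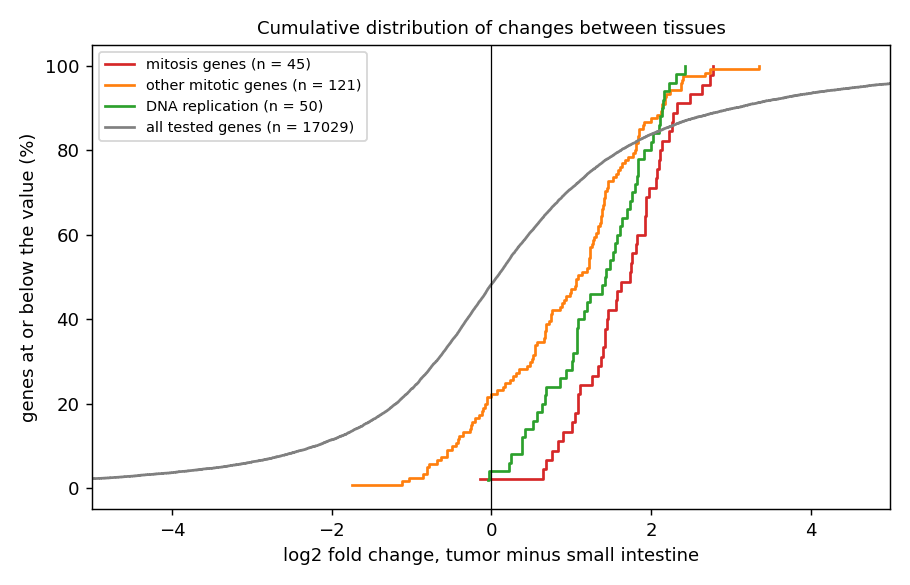
Cumulative share of genes (vertical axis, percent) at or below a given log2 fold change between tumor and small intestine (horizontal axis, shown from -5 to 5) for the 45 mitosis genes, 121 other mitotic genes, 50 DNA replication genes and all 17029 genes tested. The curve of the 45 rises steeply between 0.65 and 2.78 apart from Pttg1, whereas that of all genes is spread on both sides of 0 around a median of 0.07.

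Fold changes were set beside the promoter elements and the length of the genes. The 28 genes with a CHR of the forms searched in a window had a median log2 fold change of 1.78, and the 8 without such a match 1.84. Outside the 45, a CHR with 2 or more CCAAT boxes was found for 298 tested genes, of which 43.6% were higher in tumor, against 39.6% of all 12156 tested genes with a promoter window. Exonic length of the gene model correlated with the log2 fold change across the 45 (Spearman's rho 0.34) and hardly over 14762 tested protein-coding genes (rho 0.08); genes within libraries are not independent, so no p is given. The 15 shortest gene models, among them Pttg1, Spc24 and Birc5, had a median of 1.40 and the 15 longest 1.81. The part of length in these differences was not tested.

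Markers of other cell types moved too. Crypt stem cell markers rose in 8 of 9 cases, with a sum of 973 to 1044 CPM in tumor and 161 to 230.5 CPM in small intestine. Relative to that sum the mitosis genes were lower in tumor, at 2.42 to 3.16 times against 3.96 to 5.64 times. Whether the sum follows the number of stem cells was not tested. Pan-epithelial markers summed to 6360 to 8643 CPM in tumor and 13940 to 18720 CPM in small intestine, with 5 of 8 lower and 1 higher in tumor under TMM, but 3 lower and 4 higher with library totals. Relative to these the mitosis genes were 6.64 times higher in tumor. Fibroblast markers rose in 8 of 8 cases (1214 to 1929 against 26.4 to 71.1 CPM) and endothelial markers in 8 of 8 (206 to 266 against 12.1 to 31.7 CPM). Neutrophil markers rose in 7 of 7, macrophage markers in 7 of 8 and smooth muscle markers in 4 of 8 cases, or 8 of 8 with library totals. Enterocyte markers fell in 12 of 12, enteroendocrine markers in 8 of 8 and goblet cell markers in 5 of 8 cases, while of 7 plasma cell markers 1 rose and 1 fell. Markers of T cells fell in 8 of 8 cases, or 4 of 8 with library totals (22.3 to 37.7 against 62.5 to 245 CPM). B cell and germinal center markers fell in 7 of 7 tested (4.35 to 13.2 against 80.2 to 320.1 CPM). The defining B cell gene Pax5 was near 0 in tumor, at 0.00592 CPM. Across small intestine replicates 1 to 4 the B cell sum was 237, 320.1, 83.4 and 80.2 CPM, and the sum of the mitosis genes was 744, 943, 1163 and 710.1 CPM. The part of dividing lymphocytes, fibroblasts, endothelial cells and epithelial cells in the mitosis values was not tested.

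**Figure D5:**
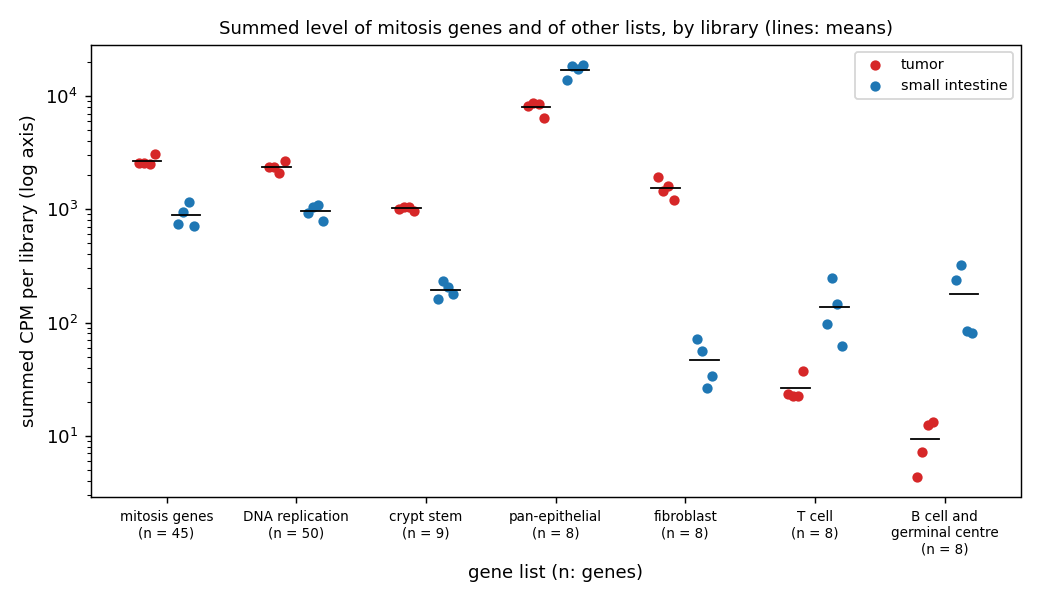
Summed CPM per library (vertical log axis) of the 45 mitosis genes and of 6 other gene lists, with 1 point per library, tumor in red, small intestine in blue and a line at each mean. The mitosis genes sum to 2530 to 3071 CPM in tumor and 710.1 to 1163 CPM in small intestine, while B cell markers lie lower in tumor.

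In genome build GRCm38, with coordinates from the GENCODE M21 annotation matched by identifier, the genes singled out above lie as follows. Anln is ENSMUSG00000036777, chromosome 9 from 22332012 to 22389188. Bub1 is ENSMUSG00000027379, chromosome 2 from 127801122 to 127831865. Cdk1 is ENSMUSG00000019942, chromosome 10 from 69335146 to 69352938. Ccnb1 is ENSMUSG00000041431, chromosome 13 from 100778650 to 100786570. Espl1 is ENSMUSG00000058290, chromosome 15 from 102296266 to 102324357. Pttg1 is ENSMUSG00000020415, chromosome 11 from 43420250 to 43426251. Spc24 is ENSMUSG00000074476, chromosome 9 from 21755442 to 21760303. Birc5 is ENSMUSG00000017716, chromosome 11 from 117849251 to 117855743. All 45 are annotated as protein-coding, and counts cover whole genes, so isoforms are not resolved. Exonic bases are shared with a gene on the opposite strand for 10 of the 45 (Ccna2, Cdc25b, Cdc25c, Ncapg, Cdca8, Plk1, Kif4, Prc1, Kif20a and Cdc20). Without a stated strand setting, reads of those stretches cannot be assigned to either gene. Foxm1 and Top2a share up to 144 and 122 exonic bases with genes on the same strand, which no strand setting separates. Kif20a shares up to 977 exonic bases with Cdc23, which rose as well, and Ncapg 699 with Lcorl.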

How the data were processed

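Polyadenylated RNA of 4 tumor and 4 small intestine libraries was analysed, grouped by the tissue named in the labels. The authors deposited raw counts per gene and FPKM values (fragments scaled by gene length and library size) per gene. Per the submitters' processing notes the tools were STAR, HTSeq 0.6.0, Cufflinks 2.2.1 and FastQC, with GRCm38 as the build. Which tool did what, its settings, annotation and strandedness: not given in the sources used here.

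Counts were tested with edgeR 4.0.16 in R 4.3.3 (filterByExpr, TMM factors, quasi-likelihood test, tissue as the only term, 6 residual degrees of freedom) on all 17029 genes that passed. Standard errors are the log2 fold change over the root of F. For genes whose deposited FPKM averaged 1 or more, log2(FPKM + 1) was tested by limma-trend (version 3.58.1), so changes of low genes come out too small. Alternatives were DESeq2 1.42.0, other scalings, filters and pseudocounts, a replicate block and leaving out each library. Scripts were tested on simulated data. No 2 libraries agreed within sampling noise.

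The 45 genes, the other lists and the tests were chosen with earlier results of these data known. Genes given in every library are, for each role, those with the largest and the smallest change, plus Mki67, Cdk1, Plk1, Foxm1, Birc5 and Pttg1 and any gene not called. From each further list the largest rises and the falls are named, and a few of its genes are not reported here. Ensembl identifiers were matched to symbols for 42462 of 43629 genes. Promoter sequences came from RefSeq (GRCm38.p6), and a window shorter than a gene's regulatory region, or set at another start, can miss elements.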

Additional observations from a re-analysis of the deposited data

Results flagged for a closer look

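Each of the 45 mitosis genes was examined in each tissue for a single library far from the other 3, in 90 groups of 4 libraries. Chance alone marks about 1 group in 20, and 5 of the 90 were marked. In 4 of them tumor replicate 4 was high. Top2a stood at 432 CPM there, and the remaining tumors lay at 343 to 352 CPM. Smc4 was at 107 CPM, against 88.8 to 89.3 CPM, Cenpe at 53.8 CPM, against 41.8 to 43.6 CPM, and Bub1 at 40.8 CPM, against 28.8 to 30.7 CPM. The remaining group was Ect2 in small intestine, where replicate 1 was low at 8.82 CPM while the others held 14.5 to 15.2 CPM.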

How the results depend on the processing

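The 45 genes were refitted under 16 alternatives, and of their single results 705 kept direction and call, 14 kept direction but lost the call and 1 reversed. The reversal was Pttg1 with library totals, at a log2 fold change of 0.73 (edgeR adjusted p = 0.00156; its log2 fold change ran from -0.24 to 0.73 over the alternatives). Library totals also moved the median of the 45 to 2.60 and the split of all calls to 10564 higher and 2996 lower, from 6619 and 6030. Requiring at least a 2-fold change left 39 of the 45 called. Leaving out 1 library at a time gave 42 to 44 genes higher, medians of 1.62 to 1.86 and 12049 to 12917 genes called in all, and in FPKM 45 higher and 10198 to 10751 called. The 9 calls lost on leaving out a library were those of Spc24 and Birc5. With the replicate number as a block, 44 of the 45 were higher and 11893 genes were called, and in FPKM, a fit added after seeing the data, 45 and 10355. Libraries with the same number did not deviate together (r of -0.16 to 0.01, and no number was its own best match). Tissues of 1 animal need not deviate together, so this cannot show whether the samples are paired. The main fit had no block because the labels do not state a pairing. The 4 libraries per tissue limit the precision, depth does not show which cells held a transcript, and the tissues differ in composition.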
